A study of Canis lupus familiaris with 51 samples.

Results

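The high-affinity IgE receptor and the kinases and adaptors that lie next to it were described across 51 canine cutaneous mast cell tumors (MCTs), spontaneous skin tumors of dogs. The members were all probes whose gene name in the array files was FCER1A, MS4A2, FCER1G, LYN, FYN, SYK, BTK, LAT, LCP2 or PLCG1. Of these 10 genes, 9 were represented, by 17 of 43603 probes, and no probe carried the name LAT. RNA from the middle of each tumor went onto 1 Agilent canine array of the one-color kind, and a level is the log2 brightness of a probe after quantile normalization over the 51 arrays. The labels gave the breed, sex and age of the dogs. There were 30 female and 19 male dogs, and 2 had no sex given. By breed there were 9 Boxers, 9 Labrador Retrievers, 14 Crossbred dogs and 17 dogs of other breeds, aged 3 to 14 years with a median of 8. The labels gave no histological grade, class or outcome, so all tumors formed 1 group, and levels were not set against tumor class here. Each array had its own tumor case, and the labels named no treatment of the dogs.

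The IgE receptor is the switch by which allergen activates mast cells. Its alpha chain, FCER1A, binds IgE, its beta chain, MS4A2, amplifies the signal, and its gamma chain, FCER1G, which it shares with other Fc receptors, carries the signal into the cell. The kinase LYN phosphorylates tyrosines in the tails of the beta and gamma chains, SYK docks there and phosphorylates the adaptors LAT and LCP2 (SLP-76), and phospholipase C gamma, helped by BTK, then releases calcium and triggers degranulation. FYN starts a parallel route through phosphoinositide kinase. FCER1A and MS4A2 are found mainly in mast cells and basophils, whereas FCER1G, LYN, SYK, BTK and LCP2 also serve many other leukocytes, and FYN and PLCG1 are used still more widely.

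Tyrosine sites of the kinds named above lie in some of the probes themselves, and their letters are shown so that the transcript stretches read by these probes can be seen. Sequences are those of the array files, written 5′ to 3′. In the first pair, capitals mark the motif of TAC, then any 6 bases, then CTG, a tyrosine codon followed by a leucine codon as in the activation motifs of receptor tails. In the last, capitals mark TACTAC, the adjacent tyrosine codons of the activation loop of SYK.
FCER1G probe 2: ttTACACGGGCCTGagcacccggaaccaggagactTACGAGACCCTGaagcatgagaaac
MS4A2 probe 2: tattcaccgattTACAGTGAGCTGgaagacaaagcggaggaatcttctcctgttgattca
SYK probe 1: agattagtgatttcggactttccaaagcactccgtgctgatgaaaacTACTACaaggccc

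FCER1G probe 2 held the motif 2 times, with starts 33 bases apart, and the files place it at chr38:24267579-24267757 on the minus strand, 179 bases for a probe of 60 bases. MS4A2 probe 2 held it once and lies at chr21:53635944-53636003 on the plus strand. The files place SYK probe 1 at chr1:98981332-98992043 on the minus strand. The genome build of these positions is not given in the sources used here, and gene parts were not annotated. The tyrosine and leucine motif occurred in 1.39% of the 43603 probes as written and in 2.47% on either strand. It occurred in 3 of the 17 member probes, FCER1G probe 1 being the third. TACTAC occurred in 1.08% of probes as written and 1.68% on either strand, and in 1 member probe. Such a match describes the letters of a probe only.

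All 17 member probes were well above background on all 51 arrays except that of PLCG1, which was so on 50, and none was saturated. Over the series, 59.4% to 74.8% of the spots of an array were well above background. The label was checked against mast cell markers. Probes of KIT, CMA1, MITF, HPGDS, SRGN, SLC18A2 and ENPP3 were well above background on 51 of 51 arrays, whereas CTSG was so on 36. No probe bore the names of CPA3, HDC, GATA2 or the tryptases in the files. Each array stands for 1 tumor piece with all the cells it held, so fewer cells of a type and less RNA per cell cannot be told apart.

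The receptor chains varied strongly between tumors. For FCER1A the lowest level was 14.51 in tumor LM0, the median 16.78 and the highest 17.37 in tumor T107, a 7.23-fold range. The 5 lowest tumors were LM0, T114 at 14.63, T80 at 15.10, T57 at 15.36 and T117 at 15.72, and the median lay closer to the top of the range than to its bottom. FCER1A probe 2 also placed LM0 (11.04) and T114 (10.97) lowest. MS4A2 went from 13.89 in T114 through a median of 15.68 to 17.19 in T90, a 9.85-fold range. FCER1G went from 8.71 in T30 through a median of 10.09 to 12.16 in T132, an 11.0-fold range, and T132 stood alone at the top.

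Spot noise could be read for 1 member only. MS4A2 probe 2 was printed 5 times on every array, and the SD between its spots had a median of 0.0347 and a maximum of 0.143, and the SD between tumors was 0.75. Spots of an array share 1 labeling and hybridization, so this is not the error of a repeated array. Different probes of a gene ranked the tumors alike, with r of 0.99 for MS4A2, 0.97 for FCER1A and BTK, 0.95 and 0.89 for the 2 further LYN probes, 0.87 for SYK and 0.85 for LCP2. The probe pair of FCER1G (r = 0.996) and that of FCER1A overlap in position, so their agreement is partly that of shared letters.

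Among the kinases, SYK had the widest range of the 9 brightest probes and LYN the narrowest. This order holds for the brightest probes only. SYK probe 2 had a 7.39-fold range, and LYN probes 2 and 3 had ranges of 6.16-fold and 7.02-fold. SYK, which binds the phosphorylated receptor tails, went from 8.75 in T77 through a median of 10.70 to 12.72 in T57, a 15.7-fold range. LYN, the first kinase to act, went from 11.06 in T47 to 13.02 in T57, which lay 0.92 above the median, a 3.90-fold range. The SD between tumors was 0.75 for SYK and 0.43 for LYN, beside 0.75 for BTK and 0.76 for FCER1G. Of the 29918 probes well above background on at least 26 arrays, 77.8% had a lower SD than SYK and 43.3% a lower one than LYN. FYN went from 8.73 in T53 through 9.96 to 11.12 in T130, a 5.24-fold range. BTK, the Tec family kinase upstream of phospholipase C, went from 11.27 in T114 through 13.41 to 14.63 in T107, a 10.3-fold range.

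The adaptor LCP2, the scaffold on which phospholipase C is activated, went from 10.69 in T77 through a median of 12.50 to 14.07 in T57, a 10.4-fold range. PLCG1, the phospholipase, went from 4.70 in T47 through 6.08 to 7.18 in T135, a 5.58-fold range at a dim level. The same tumors recurred at the ends of several genes. T47 and T77 were each among the 5 lowest tumors for 6 of the 9 genes, and T130 was among the 5 highest for 5 of them.

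Receptor and kinases did not always lie on the same side of the median, as the plot of levels by tumor shows. In T57 the alpha and beta chains were low, with FCER1A at -1.42 and MS4A2 at -1.24 relative to their medians on the log2 scale. Yet SYK, LYN and LCP2 reached their highest levels of all tumors there, SYK at 2.03 above its median. T114 had the lowest MS4A2 and BTK, with FCER1A at -2.15 relative to its median, whereas its SYK lay 0.97 and its FYN 0.74 above theirs. LM0 had the lowest FCER1A, at -2.27 relative to the median, while its MS4A2 lay 0.62 above. T77 was low in both, with SYK at -1.94 and MS4A2 at -1.22. These 4 tumors are described after their values were seen. The proliferation score, the mean scaled level of 10 cell cycle genes, was 1.85 in T57, 1.81 in T114 and 1.99 in LM0, which with T9 (1.84) were the 4 highest of the 51. T9 was not low in FCER1A, with a level of 17.20 beside the median of 16.78, and its BTK (14.56) lay above the median of 13.41.

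**Figure D1:**
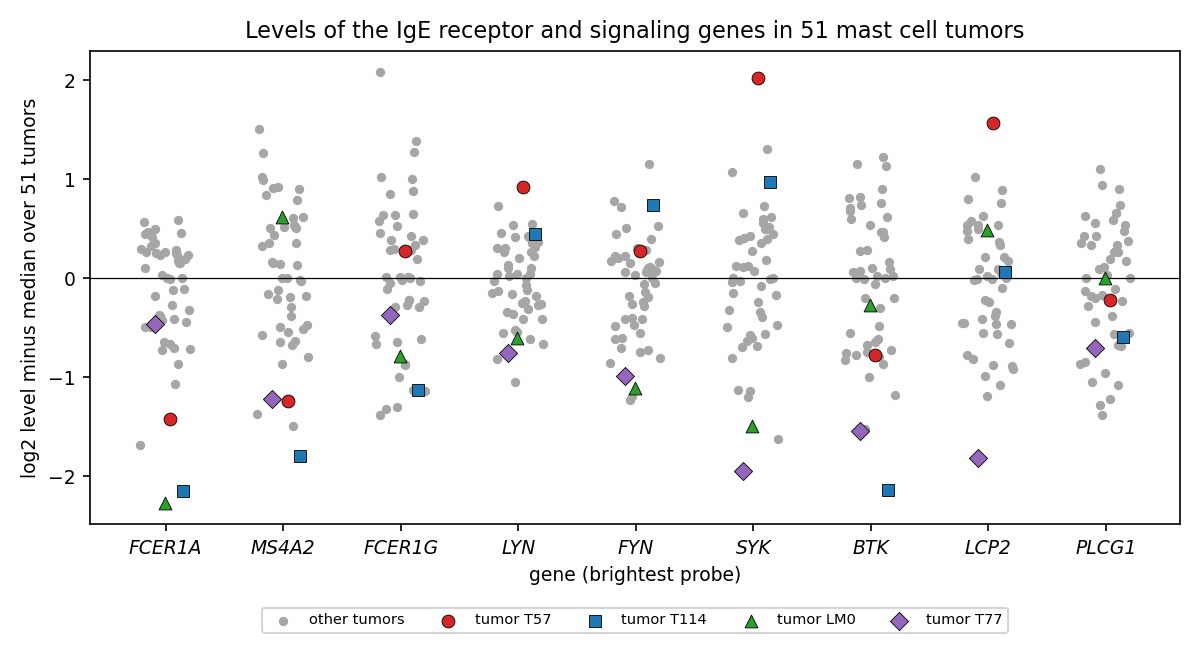
Log2 level of the brightest probe of each of the 9 genes minus its median over the 51 tumors, 1 point per tumor. T57 lies at the top for SYK, LYN and LCP2 and far down for FCER1A and MS4A2, and LM0 is lowest for FCER1A and above the median for MS4A2.

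To ask whether the receptor and its signaling genes moved together, all 36 pairs of the 9 genes were correlated over the 51 tumors. All 36 coefficients were positive, and 32 passed a permutation test at an adjusted p under 0.05 (100000 two-sided permutations, Benjamini-Hochberg over 36 pairs). Of 29732 probes well above background on at least 26 arrays and never missing, 53.6% had a positive r with PLCG1 and 64.3% with FYN. The other members lay between these 2 shares. How many pairs of other genes would pass was not tested. Of the receptor chains, FCER1A and MS4A2 had r = 0.73 and rho = 0.81, FCER1A and BTK r = 0.69 and rho = 0.77, and MS4A2 and BTK r = 0.64 and rho = 0.66. Each of these had a permutation p of 1e-05 by both measures, the smallest the permutations can give, and an adjusted p of 2.57e-05. Without the 2 tumors farthest from the median of the first gene, the coefficients were 0.87, 0.70 and 0.67.

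Among the kinases and the adaptor, SYK and LYN had r = 0.80 (rho = 0.77), SYK and FYN r = 0.77 (rho = 0.71), LYN and LCP2 r = 0.76 (rho = 0.73), and SYK and LCP2 r = 0.71 (rho = 0.67). Permutation p was again 1e-05, the smallest they can give, for each, with an adjusted p of 2.57e-05. Without the 2 farthest tumors r was 0.76, 0.74, 0.72 and 0.60. FCER1G, the chain that SYK binds, had r of 0.62 with FCER1A, 0.69 with LYN, 0.69 with BTK, 0.65 with LCP2 and 0.55 with SYK, all past the threshold.

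The 4 pairs that missed the threshold joined SYK or LCP2 with a receptor chain, or PLCG1 with BTK. SYK had r = 0.27 with FCER1A (rho = 0.46, adjusted permutation p = 0.0575 for r) and r = 0.21 with MS4A2 (rho = 0.34, adjusted permutation p = 0.143). LCP2 with FCER1A had r = 0.27 (rho = 0.54, adjusted permutation p = 0.0575) and PLCG1 with BTK r = 0.17 (rho = 0.24, adjusted permutation p = 0.246). The first 3 of these 4 depended on which tumor was left out. Without T57, r of SYK with FCER1A was 0.42 (adjusted permutation p = 0.00288), that of SYK with MS4A2 0.34 and that of LCP2 with FCER1A 0.41, and without T114 they were 0.40, 0.30 and 0.31, all past the threshold. Without LM0 the same 3 had r of 0.17, 0.25 and 0.37, and only LCP2 with FCER1A passed. Without T77 they were 0.27, 0.14 and 0.27, and none passed. By rank over all 51 tumors all 3 passed. The count of pairs past the threshold was 35 without T57, 35 without T114, 33 without LM0 and 30 without T77, each left out after its values were seen. Whether these coefficients are smaller than those of the other pairs was not tested.

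The arrays were scanned in 9 sessions, of which 6 held 7 or 8 tumors. Within each of these 6, r of FCER1A with MS4A2 lay between 0.77 and 0.94, that of SYK with LYN between 0.50 and 0.97, and that of LYN with LCP2 between 0.69 and 0.94. With levels centred within each session r was 0.77, 0.78 and 0.84, and within each slide 0.72, 0.75 and 0.83. SYK with FCER1A ranged from -0.44 to 0.92 between sessions. As a measure of array quality, the share of spots well above background correlated with MS4A2 (r = -0.41, rho = -0.42, adjusted permutation p = 0.0242, 9 genes tested), BTK (r = -0.37, rho = -0.35, adjusted permutation p = 0.0264) and LCP2 (r = -0.37, rho = -0.39, adjusted permutation p = 0.0264). Without the 2 farthest arrays r was -0.34, -0.27 and -0.36. FCER1A missed the threshold by r (r = -0.23, adjusted permutation p = 0.153) but had rho = -0.38 (permutation p = 0.00563, not adjusted). The part of this measure in the results above was not tested.

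The tumors differed sharply in skin RNA. A keratinocyte score of 6 genes split them into 25 and 26 with an empty stretch of 22.5% of its range between, and 25 tumors had a level of KRT10, an epidermal keratin, of at most 8.96 and the other 26 one of at least 13.7. Pairs of members were therefore correlated again within each set, an alternative chosen after seeing the data. In the 26 tumors rich in keratinocyte RNA 27 of 36 pairs passed. In the 25 poor in it 3 did: LYN with SYK (r = 0.68, adjusted permutation p = 0.0072), FCER1G with FYN (r = 0.61, adjusted permutation p = 0.025) and FCER1A with FCER1G (r = 0.58, adjusted permutation p = 0.0294). FCER1A and MS4A2 had r = 0.90 in the first set and r = 0.49 in the second, where it missed the threshold (adjusted permutation p = 0.0764). Without LM0 r was 0.84 in the second set (adjusted permutation p = 0.00036), and without T57 it was 0.37 (adjusted permutation p = 0.159). The 3 pairs of the second set were 5 without LM0 and 7 without T57, and FCER1G with FYN (r = 0.48) and with FCER1A (r = 0.42) then missed the threshold without LM0, whereas LYN with SYK passed without either (r = 0.57). In the first set 34 pairs passed without T114 and 24 without T77. For SYK and FYN the values were 0.86 and 0.51 (adjusted permutation p = 0.0764 in the second). With a score of 8 mast cell genes taken out of every gene (residuals, also chosen after seeing the data), 13 of the 36 pairs passed. FCER1A with MS4A2 then had r = 0.22 (adjusted permutation p = 0.197), FCER1A with BTK r = 0.33 (adjusted permutation p = 0.0614) and MS4A2 with BTK r = 0.15 (adjusted permutation p = 0.387), so these 3 lost their calls. LYN with SYK (r = 0.76), SYK with FYN (r = 0.73), LYN with LCP2 (r = 0.68) and SYK with LCP2 (r = 0.65) kept theirs. Each set by keratinocyte score holds fewer tumors than the whole, and the difference between the sets was not itself tested.

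**Figure D2:**
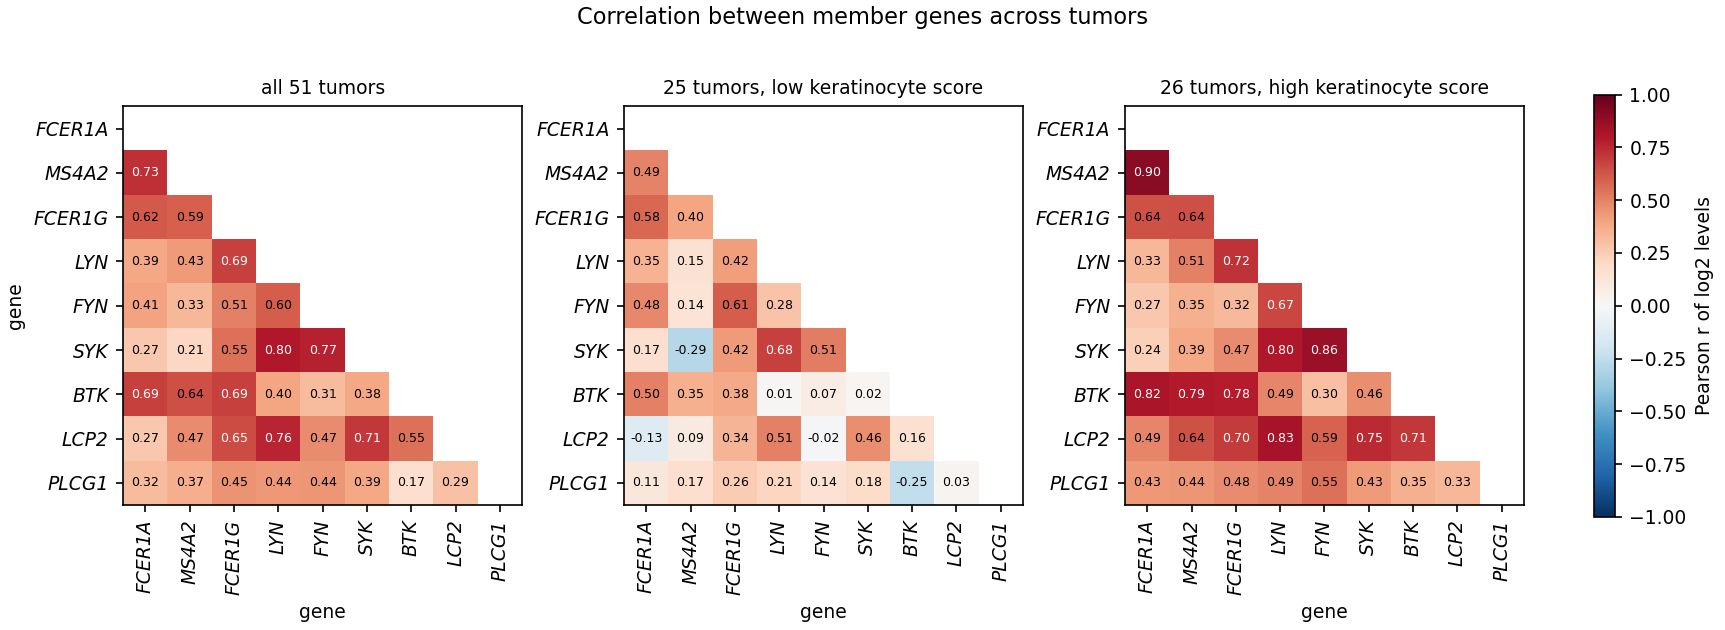
Pearson r of log2 levels for each pair of the 9 genes, in all 51 tumors and in the tumors below (25) and above (26) the gap of the keratinocyte score. LYN with SYK is high in every panel (0.80, 0.68 and 0.80), whereas BTK with LYN is 0.40, 0.01 and 0.49.

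Among the 26 tumors rich in keratinocyte RNA, 6 of the 9 members were lower where the score was higher. There r with the score was -0.64 for LYN (rho = -0.66, adjusted permutation p = 0.00702), -0.61 for SYK (rho = -0.56, adjusted permutation p = 0.00801), -0.59 for FYN (rho = -0.57, adjusted permutation p = 0.00954) and -0.54 for LCP2 (rho = -0.53, adjusted permutation p = 0.0192). MS4A2 (r = -0.50, rho = -0.46, adjusted permutation p = 0.0329) and FCER1G (r = -0.48, rho = -0.48, adjusted permutation p = 0.0418) also passed. FCER1A had r = -0.45 (rho = -0.56), BTK r = -0.42 and PLCG1 r = -0.32, which missed the threshold. By rank FCER1A passed (adjusted permutation p = 0.0163) and MS4A2 missed it (adjusted permutation p = 0.0507). Without the 2 farthest tumors these 6 lay between -0.60 and -0.38. Among the 25 tumors poor in keratinocyte RNA, r lay between -0.21 and 0.19 for the 9 genes and none passed. These are 18 relations in 1 family, and no r over all 51 tumors is given for this score because of the split. Adjusted instead over the 99 relations of members with all scores in these 26 tumors, LYN, SYK, FYN and LCP2 still passed. MS4A2 (adjusted permutation p = 0.0576) and FCER1G (adjusted permutation p = 0.0804) then missed the threshold. How many of all probes would pass with it was not tested.

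**Figure D3:**
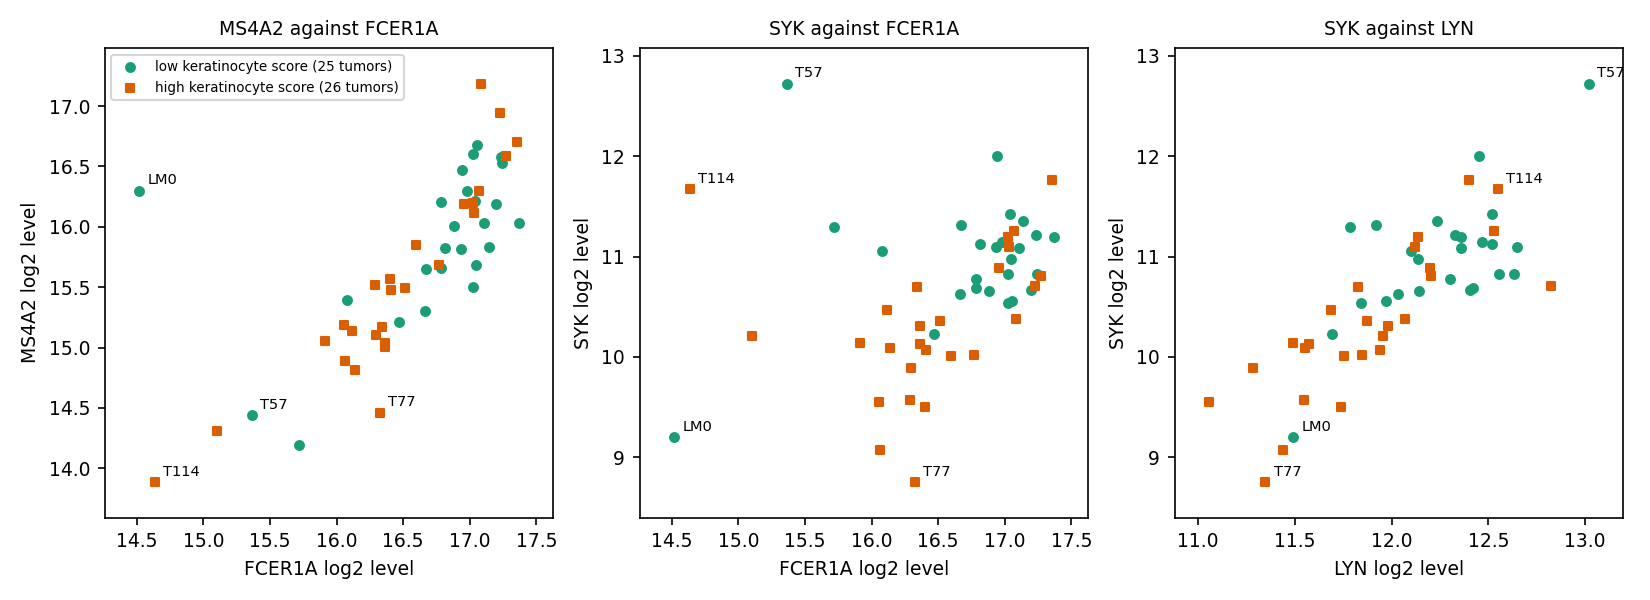
Log2 levels of 3 pairs of genes in the 51 tumors, with circles for the 25 tumors below and squares for the 26 above the gap of the keratinocyte score. MS4A2 rises with FCER1A (r = 0.73) except in LM0, SYK against FCER1A has r = 0.27 with T57 and T114 at the upper left, and SYK rises with LYN (r = 0.80).

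Scores of 10 further marker lists were then set against the 9 genes to see which cells' RNA each member moved with. All 9 members passed with the mast cell score, built from 8 of its 16 listed genes, and rose with it. The coefficient was 0.84 for MS4A2 (rho = 0.81), 0.78 for FCER1A (rho = 0.84), 0.69 for BTK (rho = 0.66) and 0.57 for FCER1G (rho = 0.63). Each had a permutation p of 1e-05, the smallest possible, and an adjusted p of 0.000247 over 99 relations. The kinases and adaptors followed with 0.53 for LYN, 0.48 for LCP2, 0.43 for PLCG1, 0.41 for FYN and 0.39 for SYK, of which the last had an adjusted permutation p of 0.0224. Without T114 and T77, which had the lowest mast cell scores, r was 0.82 for MS4A2, 0.79 for FCER1A, 0.58 for BTK and 0.44 for SYK. The calls of FYN and SYK were lost with levels centred within session (r = 0.34 for both, adjusted permutation p = 0.107) and within slide (0.32 and 0.30, adjusted permutation p = 0.195 and 0.32), and within single sessions r went as low as -0.38 for FYN and -0.24 for SYK. That of PLCG1 was lost under scaling to the 75th percentile (r = 0.33, adjusted permutation p = 0.0744). How many of all probes would pass with the mast cell score was not tested.

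Of the list's genes, MITF, the transcription factor of the mast cell lineage, had the highest r with FCER1A of any marker gene (0.79). KIT, the stem cell factor receptor, had 0.56, the chymase gene CMA1 0.68 and SLC18A2, the amine transporter of granules, 0.67. HPGDS had 0.73 and ENPP3 0.68, whereas SRGN, the granule proteoglycan, had 0.23 and CTSG, dim on these arrays, 0.04. In the 25 tumors poor in keratinocyte RNA the mast cell score still went with FCER1A (r = 0.71) and MS4A2 (r = 0.65, adjusted permutation p = 0.029 for both). There SYK had r = -0.14 and LCP2 r = -0.18 with it. In the 26 others 5 of the 9 members passed.

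Of the 90 relations with these 10 scores, 21 passed, 12 positive and 9 negative. The 9 with the mast cell score made up most of the positive ones, and the other 3 were with B and plasma cell genes. BTK, a kinase of B cells too, had r = 0.47 (rho = 0.49, adjusted permutation p = 0.00441). SYK had r = 0.37 (adjusted permutation p = 0.0344) and LCP2 r = 0.35 (adjusted permutation p = 0.0416). With the data processed or correlated in 9 other ways, BTK always passed, whereas SYK passed in 4 and LCP2 in 3. The lowest r among these was 0.30 for SYK and 0.22 for LCP2. FCER1A missed by r with this score (r = 0.33, adjusted permutation p = 0.0724) but passed by rank (rho = 0.40, adjusted permutation p = 0.0179). Without the 2 farthest tumors FCER1A passed too (r = 0.46, adjusted permutation p = 0.0065), as did FYN (r = 0.36, adjusted permutation p = 0.0467). FCER1G passed by rank only (rho = 0.34, adjusted permutation p = 0.0478). The endothelial score of 6 genes ran opposite to 4 members, with r of -0.58 for BTK, -0.56 for FCER1A, -0.55 for MS4A2 and -0.41 for FCER1G. EMCN, an endothelial sialomucin, had the lowest r with FCER1A of any marker gene (-0.73). The other genes of this list had r between -0.53 and -0.44 with FCER1A except KDR, a receptor of vascular endothelial growth factor, which ran the other way (0.41). By r over 51 tumors, macrophage, T and NK cell, dendritic cell and fibroblast scores passed with no member (adjusted permutation p under 0.05). That includes FCER1G, SYK and LYN, which macrophages also use (r of 0.21, 0.25 and 0.25 with the macrophage score). By rank MS4A2 passed with the fibroblast score (rho = -0.38, adjusted permutation p = 0.0244). In the 25 tumors poor in keratinocyte RNA LCP2 passed with the macrophage score (r = -0.70, adjusted permutation p = 0.0139). These markers were measured on the same arrays as the members, and the part of each cell type in the levels was not tested. How many of all probes would pass with any of these 10 scores was not tested either.

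Several weaker relations lost their call without the 2 farthest tumors. The proliferation score had r = -0.39 with FCER1A (rho = -0.16, adjusted permutation p = 0.0197 for r), but r was -0.21 without the 2 farthest tumors. No other member passed with it, and r was -0.07 for MS4A2 and 0.0046 for SYK. The skeletal muscle score, built from 3 of its 6 listed genes, had r = -0.44 with FCER1A, and -0.29 without the 2 farthest. Of its genes, ACTA1 had r of -0.02 with FCER1A, DES -0.51 and MYBPC1 -0.38. The neutrophil and eosinophil score had r = -0.42 with FCER1A, -0.36 with MS4A2 and -0.36 with BTK, and -0.24, -0.19 and -0.22 without the 2 farthest. By rank over all 51 tumors these 3 passed (rho of -0.38, -0.37 and -0.36, adjusted permutation p of 0.0244, 0.03 and 0.0368), whereas FCER1A with the skeletal muscle score did not (rho = -0.29, adjusted permutation p = 0.104).

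**Figure D4:**
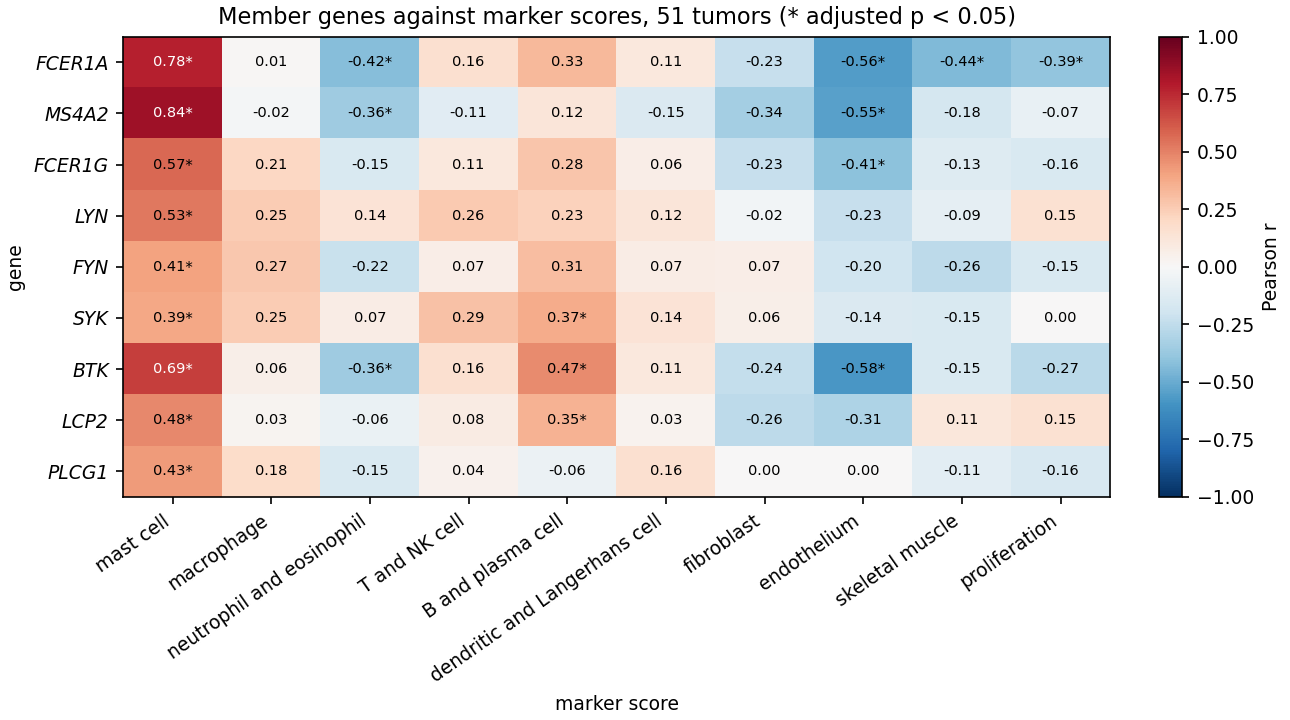
Pearson r of the 9 genes with 10 marker scores over 51 tumors; an asterisk marks an adjusted permutation p under 0.05. The mast cell column is positive for all 9 genes, from 0.39 for SYK to 0.84 for MS4A2, and the endothelium column is lowest for BTK at -0.58.

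The genes most like each member, by Pearson r over the 51 tumors among 16366 named probes well above background on at least 26 arrays, are given without a test. MS4A2 was closest to SKAP1 (r = 0.85), an adaptor, GPM6A (0.85) and HPGD (0.85), which breaks down prostaglandins. FCER1A was closest to NSMAF (0.85) and SMARCAD1 (0.82). FCER1G was closest to ANXA11 (0.79), EDEM3 (0.77) and PRKAG2 (0.77), and BTK to GSPT2 (0.78), GPM6A (0.77) and INPP4B (0.77). GPM6A thus stood beside both MS4A2 and BTK.

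LYN was closest to VAV1 (0.86), an exchange factor that SYK phosphorylates, LCP1 (0.81), a leukocyte actin bundler, and JMJD2C (0.78), a histone demethylase. SYK was closest to JMJD2C (0.83), LCP1 (0.79) and RHOG (0.79), and FYN to NAV1 (0.83), LITAF (0.76) and REV3L (0.75). LYN and SYK shared JMJD2C and LCP1 among their 3. LCP2 was closest to CEP170 (0.83), DNAJC18 (0.79) and PGPEP1 (0.79), and PLCG1 to FTSJD2 (0.83), PRPF8 (0.83) and ADAR (0.81).

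The rest of the pathway was described with a list of 92 further genes, 70 of which were well above background on at least 26 arrays. With SYK, 62 of the 70 had a positive r and the median r was 0.32, against 63.6% positive and a median of 0.10 over 29732 probes. With FCER1A, 48 of 70 were positive with a median of 0.19, against 58.6% and 0.08. With MS4A2, 43 of 70 (61.4%) were positive with a median of 0.12, close to the 60.4% and 0.10 over all probes. SYK had the highest share of the 9 members and MS4A2 the lowest. GRAP2, the adaptor that brings LCP2 to LAT, was the closest of the list to FCER1A (0.75) and to MS4A2 (0.82). VAV1 was the closest to SYK (0.76), LYN (0.86), LCP2 (0.78) and FCER1G (0.68). Of 8 inhibitors, 7 were positive with LYN, among them MILR1, an inhibitory receptor of mast cells (0.71). ITPR3, a calcium release channel, was the lowest of the list for 8 of the 9 members, with -0.60 for LYN, and PTPN11 was lowest for PLCG1.

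Sex, breed and age of the dogs were compared to ask whether the receptor or its kinases differed with them. No member probe passed in any comparison (limma, Benjamini-Hochberg over 43603 probes, adjusted p under 0.05). Female and male dogs differed in 27 probes, 0.0619% of those tested, and in 0 of the 17 member probes, none of which reached an unadjusted p under 0.05 either, against 2708 probes (6.21%) of all. BTK differed most, with levels of 11.87, 13.42 and 14.63 (lowest, median, highest) in females and 11.27, 13.14 and 14.56 in males. The difference was 0.29 (SE 0.22, 95% interval -0.15 to 0.73, adjusted p = 0.804 by limma), and the ranges overlapped. MS4A2 probe 2 differed by -0.28 (SE 0.21, -0.70 to 0.15, adjusted p = 0.807 by limma), lower in females.

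Boxers, a breed prone to MCT, were compared with Labrador Retrievers and Crossbred dogs. All 17 member probes were lower on average in Boxers than in Labrador Retrievers, by a median of 0.35, yet none was called, beside 27 probes called of all (0.0619%). The median difference over all probes was -0.01. The 17 probes read 9 genes whose levels were correlated, so they are not 17 separate observations. At an unadjusted p under 0.05 there were 2 member probes, both of BTK, and 1856 probes (4.26%) of all. BTK levels were 11.27, 12.68 and 14.54 (lowest, median, highest) in 9 Boxers and 12.59, 13.88 and 14.63 in 9 Labrador Retrievers. The brightest probe differed by -0.76 (SE 0.35, 95% interval -1.45 to -0.06, limma p = 0.0339, adjusted p = 0.9999) and the other by -0.83 (SE 0.38, limma adjusted p = 0.9999). FCER1A had levels of 14.63, 16.14 and 17.24 in Boxers and 15.10, 17.03 and 17.37 in Labrador Retrievers and differed by -0.50 (SE 0.31, -1.12 to 0.11). MS4A2 differed by -0.30 (SE 0.35, -0.996 to 0.40). The ranges of the 3 breeds overlapped for all 9 genes.

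Boxers and Crossbred dogs differed in 16 probes (0.0367%) and in 0 member probes, with 1544 probes (3.54%) and 0 member probes at an unadjusted p under 0.05. The largest member differences were -0.38 for LCP2 probe 2 (SE 0.31, 95% interval -1.01 to 0.24) and -0.38 for FCER1A probe 2 (SE 0.33, -1.04 to 0.28), both with a limma adjusted p of 0.9999. Labrador Retrievers and Crossbred dogs differed in 7 probes (0.0161%) and in 0 member probes, with 1192 (2.73%) and 0 at an unadjusted p under 0.05. BTK was again the largest, at 0.52 (SE 0.31, -0.11 to 1.15) and 0.50 (SE 0.34, -0.18 to 1.19) by its probes, higher in Labrador Retrievers and short of the threshold. The 3 breed comparisons share their groups and are not independent of each other.

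**Figure D5:**
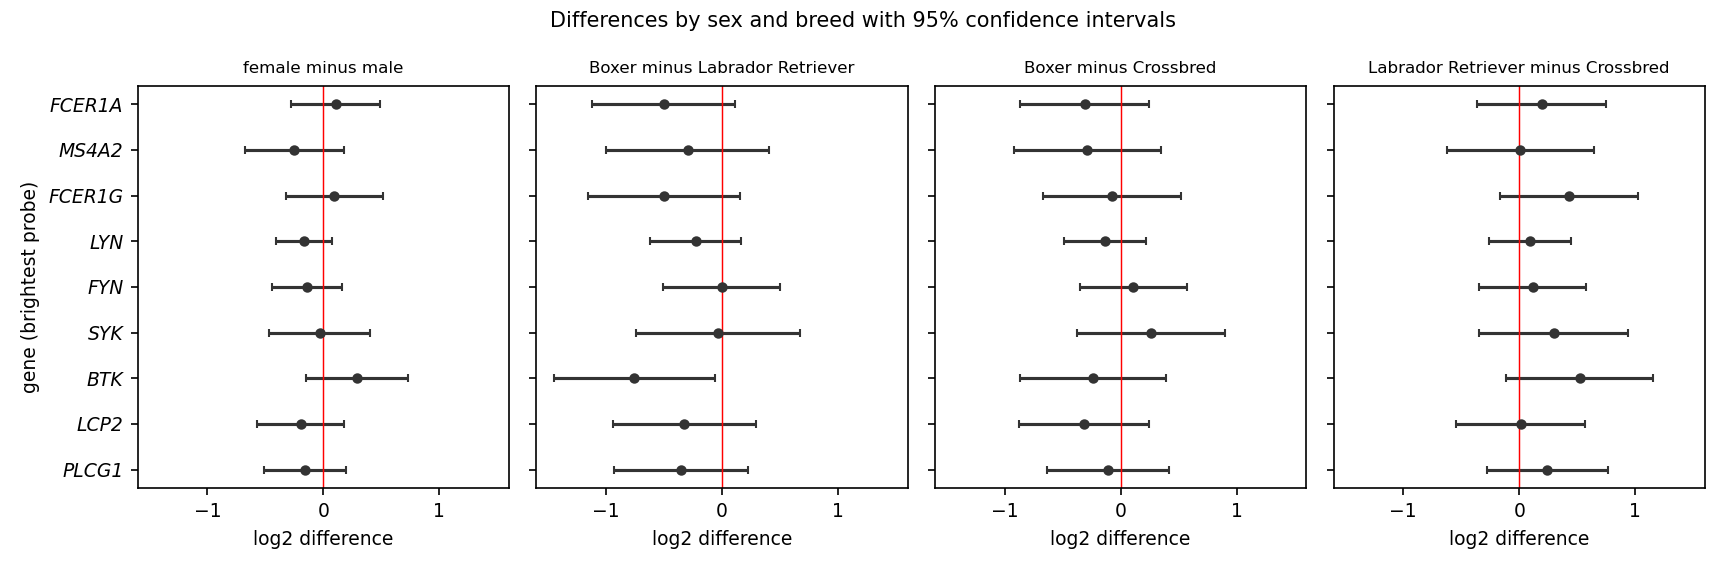
Log2 difference of the brightest probe of each gene by sex and breed, with 95% confidence intervals from limma. All intervals include 0 except that of BTK between Boxers and Labrador Retrievers (-1.45 to -0.06), which did not pass after adjustment.

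Age changed no probe past the threshold, 0 of 43603 (0%), although 1061 (2.43%) had an unadjusted limma p under 0.05, none of them a member. The steepest members were BTK, at -0.03 per year (SE 0.04, 95% interval -0.11 to 0.05), and FYN, at -0.03 per year (SE 0.03, -0.08 to 0.03). Of the 70 pathway genes measured, 0 were called by limma in any of the 5 comparisons, and between 1 and 4 had an unadjusted p under 0.05 in each. Their median difference between Boxers and Labrador Retrievers was -0.17, against -0.01 over all probes.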

How the data were processed

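RNA of 51 MCTs was measured, 1 tumor per array. The authors scanned the arrays and, per the file headers, read them out with the Feature Extraction software of Agilent, whose processed signal is background-subtracted and detrended within an array. The deposited intensity values are not normalized between arrays, and control and flagged spots are still in them. A table of intensities quantile-normalized by the authors was also deposited and served as an alternative. The array number limits precision.

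For the present analysis, quantile normalization across the 51 arrays was applied to the log2 of that signal (limma 3.58.1, R 4.3.3). Feature outliers, 2 to 35 on an array, counted as missing values. Control spots were removed and repeated spots of a probe averaged, leaving 43603 probes. The file's gene name was used; of 26589 probes without a symbol, 2239 were named through a RefSeq table. Members were represented by their brightest probe. A marker score is the mean scaled level of the list's genes that were well above background on at least 26 arrays. Sex, breed (1 fit over 4 groups) and age (49 dogs each) were tested with limma, with Benjamini-Hochberg adjustment over all probes and 95% intervals. Correlations were tested with 100000 permutations in Python. Each array had its own tumor case in the labels. On simulated levels with 200 changed probes of 43301, limma found 75% of changes of 1 and 96% of changes of 2 (log2) between the sexes, with 6 false calls. The simulated probes varied independently of each other, without slide or session differences, unlike the real ones. The smaller breed groups and age were not simulated.

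Named genes were the members, the 3 probes most like each, called member or pathway probes or else the 2 member probes with the largest difference, and the marker genes with the highest and lowest r with FCER1A. Of the probes most like a member, 1 is not reported here. Alternatives were other normalizations and background corrections, the authors' table, flagged spots kept, dim probes left out, slide or scan session as a block, other labels as covariates, a stricter threshold, ranks, the mean over probes and leaving out the 2 farthest tumors. The members and lists were chosen with earlier results of these data known. Tumor class, which the labels do not give, was not analysed here.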

Additional observations from a re-analysis of the deposited data

Results flagged for a closer look

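Among 18 sets of values (9 genes in the Boxers and in the Labrador Retrievers, 9 tumors each), 2 held a tumor whose gap to the next was large for the range of its group by Dixon's ratio, where chance alone gives about 1 in 20. Both were low in FCER1A. Among Boxers T114 had a level of 14.63, and among Labrador Retrievers T80 had a level of 15.10. Both were also low in MS4A2, at 13.89 and 14.31, and T114 was the lowest tumor for BTK. No cause was tested.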

How the results depend on the processing

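Under the 9 alternatives of each comparison by sex, breed and age, 0 member probes were called in 45 of 45 counts. The stricter threshold reuses the main fit, which called none, so its counts could only be 0. The 10 named differences kept their direction in each of the 8 other fits. Counts over all probes moved. At an adjusted p under 0.01 and 2-fold, 11 probes differed by sex, 16 between Boxers and Labrador Retrievers, 4 between Boxers and Crossbred dogs and 2 between Labrador Retrievers and Crossbred dogs. Boxers and Crossbred dogs differed in 7 probes with scan session as a block and in 9 with the other labels as covariates. Labrador Retrievers and Crossbred dogs differed in 3 with normexp, 4 without dim probes and 0 with covariates. Of the 32 pairs of members, 26 passed under all 9 planned settings, as did 11 of the 21 relations with marker scores. Chosen after seeing the data were the sets split by keratinocyte RNA, residuals on the mast cell score and leaving out 1 of 4 tumors. Without LM0, T57, T114 or T77 in turn, between 30 and 35 of 36 pairs passed, and within the 25 tumors poor in keratinocyte RNA 5 without LM0 and 7 without T57. On residuals, 13 of 36 pairs passed. There r of FCER1A was -0.0426 with LYN, -0.0506 with SYK, -0.18 with LCP2 and -0.0253 with PLCG1, r of MS4A2 was -0.0456 with LYN, -0.0168 with FYN and -0.24 with SYK, and BTK with PLCG1 had -0.20. In the 25 tumors poor in keratinocyte RNA 3 pairs and 4 of 99 relations with scores passed, and 14 of 99 in the 26 others. In those 25, r was -0.13 for FCER1A with LCP2, -0.29 for MS4A2 with SYK, -0.0215 for FYN with LCP2 and -0.25 for BTK with PLCG1, and -0.14 for SYK and -0.18 for LCP2 with the mast cell score. A set holds fewer tumors than the whole series, and the cause was not tested. PLCG1 was missing in 16 tumors of the authors' table. No paired analysis was possible because each tumor is a single sample of 1 group.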
